A study of Mus musculus with 6 samples.

Results

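The 26 genes described here encode the enzymes that make cholesterol from acetyl-CoA, the proteins that control the transcription factor SREBP2, and 1 sterol carrier that SREBP2 is known to induce. They were chosen by symbol, as a list of sterol synthesis and SREBP2 control genes drawn up with earlier results of these libraries known, and no measured value enters the rule. All 26 were found among the 23478 genes of the deposited count table, 25 under their own symbol and Msmo1 under its older symbol Sc4mol, and all 26 were among the 14477 genes with enough counts to be tested. Alveolar type 2 (AT2) cells, the lung epithelial cells that make and secrete surfactant, were purified by depletion of other cells from adult mice of mixed strain background. There were 3 Abca3 cKO libraries, from mice with a conditional knockout of Abca3, the transporter that loads phospholipid into the lamellar bodies of these cells, and 3 control libraries. Both groups had tamoxifen and were taken 6 days after it by the series' design, while the treatment label leaves room for a reading of 6 days of dosing. The labels give no Cre line, no control genotype and no list of deleted exons. The labels do not say that the libraries of a group came from separate mice, so the p-values reflect how far these libraries scatter, which may be technical.

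SREBP2 is a membrane-bound transcription factor that is held in the endoplasmic reticulum by SCAP and INSIG proteins while sterol is plentiful. When membrane sterol falls, SCAP carries SREBP2 to the Golgi, where the proteases encoded by Mbtps1 and Mbtps2 release its active fragment, and this fragment turns on nearly every enzyme of the mevalonate and sterol pathway as well as Insig1 and Stard4. Pulmonary surfactant holds cholesterol beside its phospholipid, and AT2 cells both take up cholesterol and make it.

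Levels below are CPM, the reads of a gene scaled to a common library size (by TMM), and log2 fold changes set Abca3 cKO over control and come from edgeR's quasi-likelihood test, with p-values adjusted by Benjamini-Hochberg over all 14477 genes. A gene passed at an adjusted p under 0.05. Depth was 23667614 to 26052953 counts in the Abca3 cKO libraries and 23531330 to 26071229 counts in the control libraries. Abca3 itself was at 571, 611 and 606 CPM in the Abca3 cKO libraries and at 635, 694 and 689 CPM in the control libraries (log2 fold change −0.17, adjusted p = 0.696), and these gene counts do not show which exons were read. The 8 AT2 markers summed to 72100 to 83500 CPM in Abca3 cKO and 64100 to 75200 CPM in control libraries, so both groups carried the labelled cell type, and 1 of the 8, Napsa, was higher in Abca3 cKO by the test; no marker of the other cell types passed. Of the 8 AT2 markers, 1 had a log2 fold change below 0, where 49.7% of all genes tested did. Among the other cell types, 8 of 8 alveolar type 1 and 4 of 4 club cell markers were below 0. So were 3 of 4 ciliated, 3 of 4 endothelial, 2 of 3 tested macrophage and 2 of 2 tested lymphoid markers, against none of 5 mesenchymal markers. The 4 club cell markers were also abundant, at 52200 to 81600 CPM in Abca3 cKO and 63100 to 81600 CPM in control libraries. The 5 mesenchymal markers summed to 673 to 1090 CPM in Abca3 cKO and 452 to 668 CPM in control libraries, and the 8 alveolar type 1 markers to 1900 to 2690 CPM in Abca3 cKO and 2500 to 3300 CPM in control libraries. The macrophage markers, which include Lyz2, a gene that AT2 cells also express, summed to 16400 to 19000 CPM in Abca3 cKO and 13000 to 16200 CPM in control libraries. Ciliated markers were at 177 to 211 CPM in Abca3 cKO and 179 to 217 CPM in control libraries, endothelial markers at 42.5 to 87.5 CPM in Abca3 cKO and 57.5 to 97.3 CPM in control libraries, and lymphoid markers at 0.717 to 1.64 CPM in Abca3 cKO and 1.48 to 3.01 CPM in control libraries, with Nkg7 at 0 in every library. The part of these cell types in the values below was not tested. Control replicate 2 had 2340 CPM of Xist, an RNA made from an inactive X chromosome, where the 5 others had 5.36 to 9.36 CPM. The same library had 0 CPM of the Y-linked gene Ddx3y, where the 5 others had 36.3 to 55.7 CPM. Values of the X-linked members are therefore given with and without that library. The labels give no sex, and its part in the values of the other members was not tested.

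None of the 26 genes passed the test, and 21 of the 26 (80.8%) had a log2 fold change below 0, against 49.7% of all genes tested. Their median log2 fold change was −0.19, against 0.00 for all genes tested, and it ran from −0.13 without control replicate 3 to −0.29 without Abca3 cKO replicate 2 or control replicate 1. With edgeR, 0.38% of all genes tested passed at an adjusted p under 0.05 (55 of 14477, and 21 to 50 when 1 library was left out). At an unadjusted p under 0.05, 3 of the 26 (11.5%) were lower in Abca3 cKO, namely Fdps, Insig1 and Mbtps2, against 4.16% of all genes tested, and none was higher, against 5.07%. Without control replicate 1, 8 of the 26 (30.8%) were lower at that level, against 3.23% of all genes tested in that fit. Without Abca3 cKO replicate 2 it was 6 of the 26 (23.1%), against 3.87%. Leaving out any other library left 3 of the 26 lower at that level, against 3.83% to 4.2% of all genes tested. In 5 members the groups stood apart without overlap: Acat2, Pmvk, Fdps and Mbtps2 were lower in every Abca3 cKO library (15.4%, against 6.76% of all genes tested) and Mbtps1 was higher in every one (3.85%, against 7.34%). DESeq2 called none of the members, against 1.66% of all genes tested. In bulk libraries fewer cells of a type and less RNA per cell cannot be told apart. The 95% interval of the fold change lay within 2-fold either way in 24 of the 26 (92.3%), against 69.8% of all genes tested. The exceptions were Pmvk and Dhcr7. An interval's width follows the SE, whose median was 0.169 for the members and 0.21 for all genes tested.

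**Figure D1:**
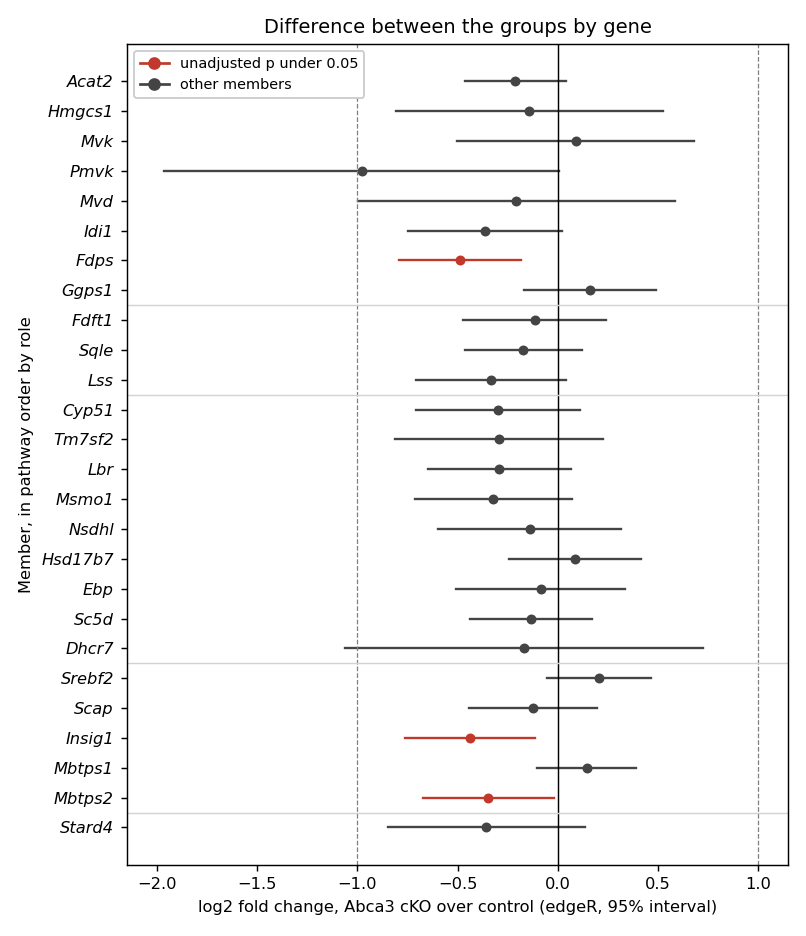
Log2 fold change of each of the 26 genes, Abca3 cKO over control, with its 95% interval from edgeR (n = 3 libraries each), in pathway order; dashed lines mark 2-fold either way. 21 of the 26 points lie left of 0, and the intervals of Fdps, Insig1 and Mbtps2, in red, do not cross 0.

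The pathway begins with 8 genes of the mevalonate and isoprenoid steps, of which 6 had a log2 fold change below 0, with a median of −0.21 and a range of −0.98 to 0.16. Acat2, the cytosolic thiolase that joins acetyl-CoA units, was at 64.5, 74.1 and 66.2 CPM in the Abca3 cKO libraries and at 85.1, 76.9 and 75.1 CPM in the control libraries. Every Abca3 cKO library was below every control library, by a narrow margin. The log2 fold change was −0.21 (SE 0.118, adjusted p = 0.648).

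Hmgcs1, the HMG-CoA synthase, was at 127 to 174 CPM in Abca3 cKO libraries and 104 to 230.0 CPM in control libraries, where it varied more than between the groups. Mvk, mevalonate kinase, was at 8.23 to 9.50 CPM in Abca3 cKO and 5.62 to 11.98 CPM in control libraries. Both groups overlapped in these genes, with log2 fold changes of −0.14 for Hmgcs1 (SE 0.280) and 0.09 for Mvk (SE 0.276).

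Pmvk, phosphomevalonate kinase, had the lowest log2 fold change of the 26. It was at 21.6, 37.4 and 45.2 CPM in the Abca3 cKO libraries and at 52.2, 104 and 49.9 CPM in the control libraries. All Abca3 cKO libraries were below all control libraries, and control replicate 2 stood well above the other controls. The log2 fold change was −0.98 (SE 0.399, adjusted p = 0.544), and its interval ran from 0.256-fold to 1.01-fold. Without control replicate 2 the log2 fold change was −0.55. Mvd, which makes isopentenyl diphosphate, was at 7.89 ± 3.18 CPM in Abca3 cKO and 9.11 ± 3.56 CPM in control (SD, n = 3 each), and the groups overlapped.

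Idi1, the isomerase that makes dimethylallyl diphosphate, was at 93.4 to 148 CPM in Abca3 cKO and 126 to 183 CPM in control libraries (log2 fold change −0.36, adjusted p = 0.583). Ggps1, which diverts farnesyl diphosphate to geranylgeranyl diphosphate for protein prenylation, was at 35.8 to 51.3 CPM in Abca3 cKO and 38.6 to 43.8 CPM in control libraries (log2 fold change 0.16, adjusted p = 0.840). These ranges overlapped in both genes.

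Fdps, on chr3:89093588-89101959 (GRCm38, minus strand), encodes farnesyl diphosphate synthase, whose product is the last precursor shared by sterols and prenylated proteins. It was at 38.0, 51.8 and 43.1 CPM in the Abca3 cKO libraries and at 60.2, 57.5 and 68.6 CPM in the control libraries. No Abca3 cKO library reached the lowest control library. The means were 44.3 ± 6.97 CPM in Abca3 cKO and 62.1 ± 5.77 CPM in control (SD, n = 3 each), with a log2 fold change of −0.49 (SE 0.143) and an interval of 0.577-fold to 0.882-fold. It had the smallest p of the 26 (unadjusted p = 0.00411, edgeR) and did not pass over all genes (adjusted p = 0.223). The annotated gene Gm43738 covers 26.7% of its exon bases on the same strand and is not in the count table, so a share of the reads may be assigned differently with another annotation.

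Farnesyl diphosphate is joined to squalene by Fdft1, oxidised by Sqle and folded to lanosterol by Lss, and all 3 genes had a log2 fold change below 0 (median −0.17). Fdft1 was at 102 to 142 CPM in Abca3 cKO and 98.1 to 149 CPM in control libraries (log2 fold change −0.12), and Sqle at 110.2 to 143 CPM in Abca3 cKO and 115 to 152 CPM in control libraries (−0.17). Lss was at 81.5 to 129 CPM in Abca3 cKO and 112 to 155 CPM in control libraries (−0.33, SE 0.171, adjusted p = 0.621). The groups overlapped in all 3, and Fdft1 shares 18.3% of its exon bases with Ctsb on the other strand, whose reads cannot be told apart without strand. Smaller shares lie under other annotated genes in Scap (13.2%), Hmgcs1 (12.1%), Tm7sf2 (12.1%), Lbr (10.7%), Idi1 (9.22%), Ggps1 (5.44%), Cyp51 (3.76%) and Lss (3.53%).

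Lanosterol is turned to cholesterol by the next 9 members, and 8 of the 9 had a log2 fold change below 0 (median −0.17, range −0.32 to 0.09), none of which passed. Cyp51, the lanosterol 14-demethylase, was at 82.0 to 113 CPM in Abca3 cKO and 83.2 to 139 CPM in control libraries. Tm7sf2 and Lbr, which reduce the sterol ring at carbon 14, likewise had overlapping groups: Tm7sf2 was at 5.70 to 7.67 CPM in Abca3 cKO and 7.18 to 8.73 CPM in control libraries, and Lbr at 25.8 to 35.5 CPM in Abca3 cKO and 31.0 to 40.1 CPM in control libraries. Every control range of these genes reached higher than the Abca3 cKO range. Vps51, which shares exon bases with Tm7sf2 on the same strand, was at 14.1 to 16.3 CPM in Abca3 cKO and 13.4 to 20.5 CPM in control libraries.

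Msmo1 and Nsdhl remove the methyl groups at carbon 4 with Hsd17b7. Msmo1 was at 46.3, 45.8 and 46.0 CPM in the Abca3 cKO libraries and at 39.7, 60.7 and 72.1 CPM in the control libraries, so the control libraries bracketed the near-equal Abca3 cKO libraries (log2 fold change −0.32, SE 0.181, adjusted p = 0.653). Nsdhl, which is X-linked, was at 80.3 to 101 CPM in Abca3 cKO and 70.7 to 132 CPM in control libraries (log2 fold change −0.14 in all libraries and −0.32 without control replicate 2). Hsd17b7 was at 36.0 to 51.4 CPM in Abca3 cKO and 37.3 to 43.5 CPM in control libraries, with a log2 fold change of 0.09.

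Ebp, the X-linked isomerase that moves the ring double bond, was at 11.1 to 14.8 CPM in Abca3 cKO and 11.5 to 15.2 CPM in control libraries (log2 fold change −0.09, and −0.20 without control replicate 2). Sc5d, which adds a double bond at carbon 5, was at 38.2 to 39.9 CPM in Abca3 cKO and 38.5 to 49.7 CPM in control libraries (−0.13). Dhcr7, which makes cholesterol from 7-dehydrocholesterol, was at 22.3 to 33.5 CPM in Abca3 cKO and 19.3 to 52.8 CPM in control libraries. Control replicate 3 set the top of the range in all 3, and the interval for Dhcr7 (0.479-fold to 1.65-fold) was too wide to place its difference within 2-fold.

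Of the 5 genes that encode SREBP2 and its control, 3 had a log2 fold change below 0 (median −0.12), and none passed. Srebf2, which encodes SREBP2, was at 127, 135 and 148 CPM in the Abca3 cKO libraries and at 112, 107 and 136 CPM in the control libraries. The groups overlapped, since control replicate 3 lay inside the Abca3 cKO range (log2 fold change 0.21, SE 0.120, adjusted p = 0.665). Scap, the sterol sensor that escorts SREBP2, was at 38.6, 50.8 and 36.0 CPM in the Abca3 cKO libraries and at 44.3, 46.6 and 45.8 CPM in the control libraries (log2 fold change −0.12, adjusted p = 0.882). The Abca3 cKO libraries lay on both sides of the near-equal controls.

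Insig1, the retention protein that is itself an SREBP2 target, took the most reads of the 26. It was at 188, 219 and 176 CPM in the Abca3 cKO libraries and at 202, 275 and 311 CPM in the control libraries. Abca3 cKO replicate 2 lay above control replicate 1, so the groups overlapped. The means were 194 ± 21.9 CPM in Abca3 cKO and 263 ± 55.7 CPM in control (SD, n = 3 each), with a log2 fold change of −0.44 (SE 0.150, unadjusted p = 0.0119, adjusted p = 0.344 by edgeR) and an interval of 0.590-fold to 0.925-fold.

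The proteases of the Golgi went in opposite directions without passing the test. Mbtps1, the site-1 protease, was at 72.8, 68.7 and 65.2 CPM in the Abca3 cKO libraries and at 64.9, 60.4 and 61.6 CPM in the control libraries (log2 fold change 0.15, SE 0.115, adjusted p = 0.787). Mbtps2, the site-2 protease, was at 31.6, 29.5 and 35.1 CPM in the Abca3 cKO libraries and at 47.5, 35.7 and 39.1 CPM in the control libraries (log2 fold change −0.35, SE 0.152, unadjusted p = 0.0389, adjusted p = 0.496). Neither gene's groups overlapped, though the gap was under 1 CPM in both. Mbtps2 is X-linked (chrX:157535371-157598715, GRCm38, minus strand), its log2 fold change was −0.43 without control replicate 2 and −0.22 without control replicate 1, and Yy2, which lies on 28.4% of its exon bases, was at 0.675 to 1.32 CPM in Abca3 cKO and 1.94 to 3.24 CPM in control libraries. Stard4, the sterol carrier, was at 16.2 to 30.2 CPM in Abca3 cKO and 22.7 to 31.1 CPM in control libraries (log2 fold change −0.36, SE 0.226). For the genes whose groups did not overlap, an exact two-sided permutation test of log2 CPM gave p = 0.1, the smallest that 3 against 3 libraries allow, and Insig1 gave exact p = 0.2.

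**Figure D2:**
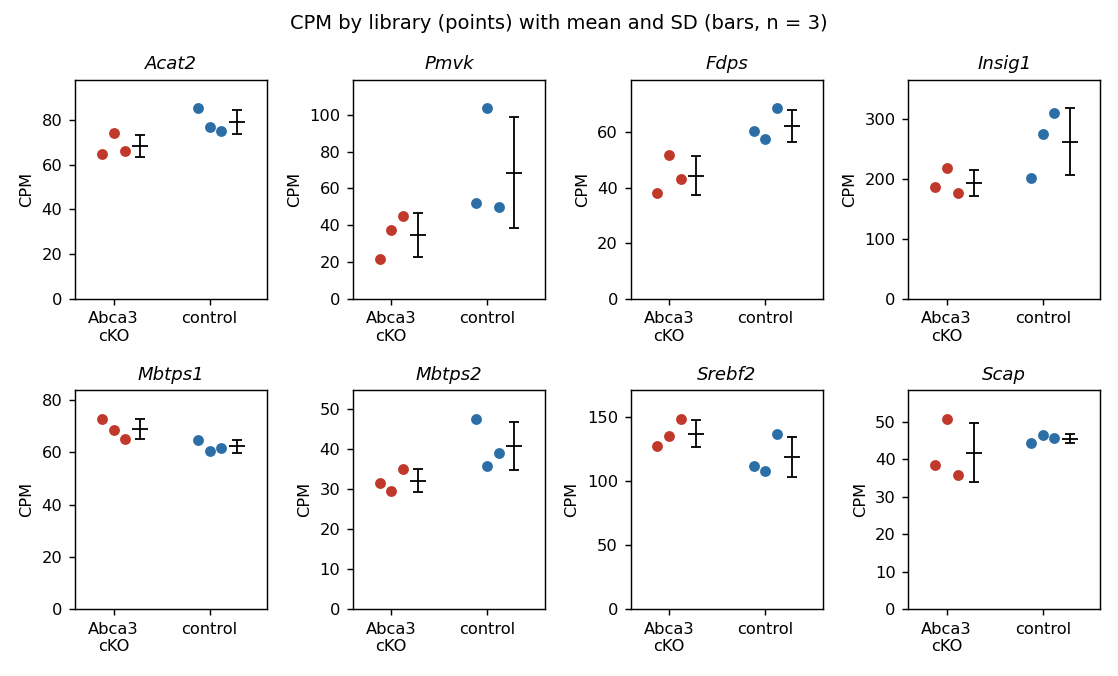
CPM of 8 members in each library (points), with the mean and SD of each group beside them (n = 3), Abca3 cKO left and control right; each axis starts at 0. Fdps was at 38.0 to 51.8 CPM in Abca3 cKO and 57.5 to 68.6 CPM in control, while the groups of Srebf2 and Scap overlap.

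The libraries of 1 group did not scatter independently from gene to gene. Among the Abca3 cKO libraries, replicate 2 was the highest in 19 of the 26 genes, where it was highest in 32.2% of all genes tested, and replicate 1 was the lowest in 13, against 33.6% of all genes tested. Among the control libraries, replicate 3 was the highest in 17, against 35.1% of all genes tested, and replicate 1 was the lowest in 16, against 32.1%. The median deviation of the 26 genes from the mean of their group was −0.10, 0.21 and −0.07 in Abca3 cKO libraries 1 to 3 and −0.20, −0.04 and 0.15 in control libraries 1 to 3 (log2 CPM), while the median over all genes tested was within 0.01 of 0 in every library. Members were thus high or low together within a library, and the 21 that were lower are not 21 independent observations.

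**Figure D3:**
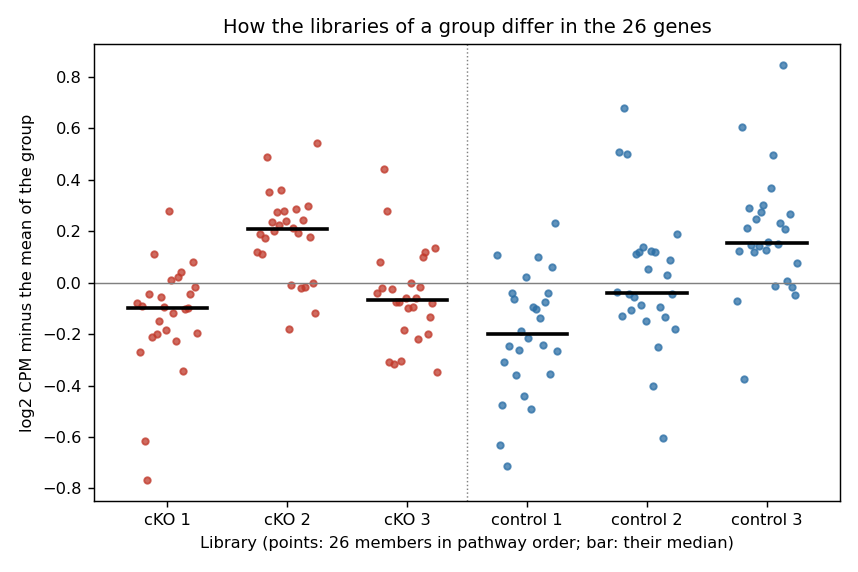
Log2 CPM of each of the 26 genes minus the mean of its own group, by library, Abca3 cKO left and control right; points are genes and bars their medians. The bar of Abca3 cKO replicate 2 lies at 0.21 and that of control replicate 1 at −0.20.

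Set against the mean of all 6 libraries, the median of the 26 genes was −0.21, 0.14 and −0.15 in Abca3 cKO libraries 1 to 3 and −0.07, 0.09 and 0.29 in control libraries 1 to 3 (log2 CPM). Abca3 cKO replicate 2 lay above control replicates 1 and 2, so the groups overlap in this median. The number of members above their own 6-library mean was 4, 19 and 5 in the Abca3 cKO libraries and 7, 16 and 24 in the control libraries. In 2 of the 26 genes the difference between group means was larger than the wider of the groups' ranges, as in 1117 of the 14477 genes tested. The median SD of log2 CPM was 0.232 for the members in Abca3 cKO and 0.232 in control libraries, close to 0.233 in Abca3 cKO and 0.221 in control for all genes tested.

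**Figure D4:**
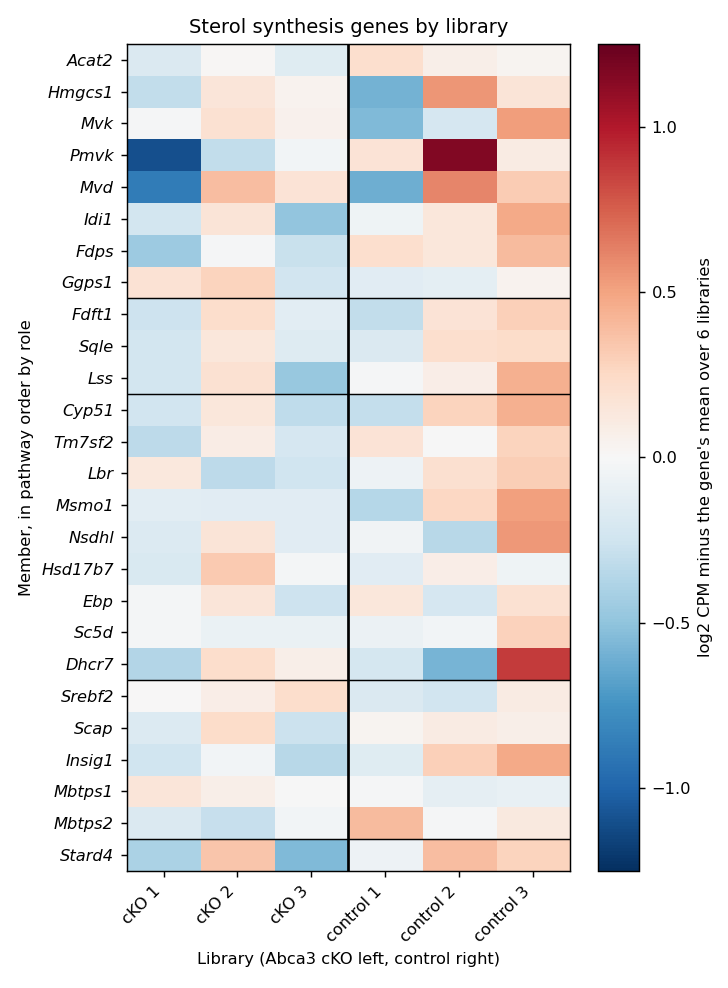
Log2 CPM of each member minus its mean over the 6 libraries, members in pathway order down the page, Abca3 cKO libraries left and control libraries right; red is above and blue below the mean. Control replicate 3 is above the mean in 24 of the 26 rows, and Abca3 cKO replicate 2 in 19.

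Levels can be compared between genes only per transcript length, for which the authors' RPKM was used, a measure meant to divide reads by transcript length as well as depth. Pmvk was highest in control libraries, at 22.3 ± 7.11 RPKM in Abca3 cKO and 47.3 ± 22.4 RPKM in control (SD, n = 3 each), followed by Insig1 with 31.3 ± 2.24 RPKM in Abca3 cKO and 42.1 ± 9.48 RPKM in control, and Fdps with 21.7 ± 2.22 RPKM in Abca3 cKO and 31.4 ± 3.89 RPKM in control. Mbtps2 was lowest, at 1.73 ± 0.196 RPKM in Abca3 cKO and 2.05 ± 0.267 RPKM in control. In the order of control means, 21 of the 25 neighbouring pairs overlapped between their control libraries, and the pairs that did not were Acat2 and Cyp51, Sc5d and Ggps1, Ggps1 and Ebp, and Stard4 and Mbtps2. The sign of the difference in log2(RPKM + 1) was that of the counts in 26 of 26 genes, and none passed with limma. Control CPM divided by control RPKM would give a length if both rested on the same reads, and it ran from 1.45 kb for Pmvk to 19.9 kb for Mbtps2. Some of these values are longer than the annotated exons: Mbtps2 has 10105 exon bases, and Cyp51, at 10.9 kb, has 4415. Fdps, at 1.98 kb, has 4208. The RPKM are thus not these counts divided by annotated exon length. How they were made is not known here, so the order of the genes by RPKM is uncertain.

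**Figure D5:**
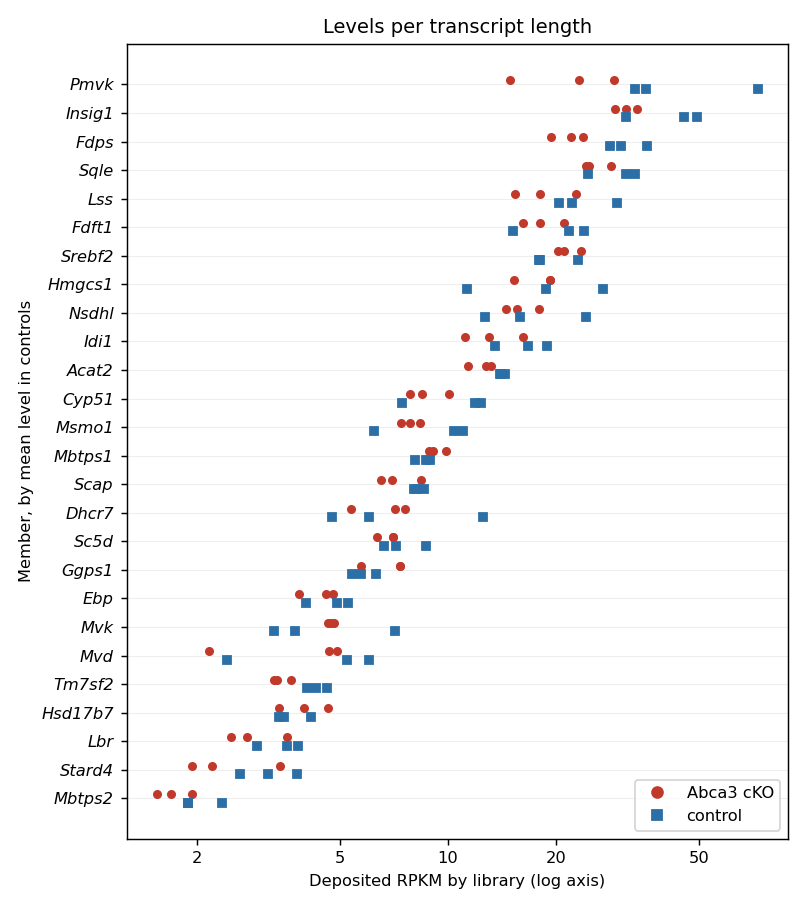
Deposited RPKM of each member in each library on a log axis, ordered by the mean of the control libraries; circles are Abca3 cKO and squares control libraries. Pmvk is at the top, with a mean of 22.3 RPKM in Abca3 cKO and 47.3 RPKM in control, and Mbtps2 at the bottom.

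SREBP2 binds sterol regulatory elements in promoters beside the factors NF-Y and Sp1, so the promoters were searched for 1 form of each motif on both strands: TCACNCCAC for the sterol element, CCAAT for NF-Y and GGGCGG for Sp1. RefSeq windows of 300 bases on GRCm38.p6, 250 before to 50 after the start, were at hand for 22 of the 26 members. Fdps, Fdft1, Sqle and Stard4 had none and were not searched. CCAAT was in 18 of the 22 (81.8%), against 42.4% of 10695 tested genes with a window, and GGGCGG in 19 of the 22 (86.4%), against 66.3%. Among the 22, TCACNCCAC was in Hmgcs1 only (4.5%), against 1.47% of the tested genes with a window, and no overlap between different motifs was found. A match is a run of letters, not a measured site. The upstream bases of 3 promoters are shown, 5′ to 3′ along the gene's own strand with matches in capitals: Hmgcs1 as the member with all 3 motifs (chr13:119690101-119690350, plus strand), Mvk for its 5 CCAAT matches (chr5:114444019-114444268, plus strand), and Insig1 as the member with the most reads, leaving out bases inside the gene as GENCODE draws it (chr5:28071162-28071362, plus strand).
Hmgcs1: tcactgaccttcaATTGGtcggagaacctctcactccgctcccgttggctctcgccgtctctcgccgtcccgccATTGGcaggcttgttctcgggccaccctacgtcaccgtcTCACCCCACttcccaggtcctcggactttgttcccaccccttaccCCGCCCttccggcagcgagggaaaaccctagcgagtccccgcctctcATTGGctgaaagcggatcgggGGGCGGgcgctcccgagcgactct
Mvk: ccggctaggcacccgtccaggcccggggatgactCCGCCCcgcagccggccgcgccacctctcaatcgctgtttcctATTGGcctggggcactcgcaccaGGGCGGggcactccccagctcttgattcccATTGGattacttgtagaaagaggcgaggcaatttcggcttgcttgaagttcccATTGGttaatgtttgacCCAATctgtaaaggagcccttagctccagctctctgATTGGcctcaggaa
Insig1: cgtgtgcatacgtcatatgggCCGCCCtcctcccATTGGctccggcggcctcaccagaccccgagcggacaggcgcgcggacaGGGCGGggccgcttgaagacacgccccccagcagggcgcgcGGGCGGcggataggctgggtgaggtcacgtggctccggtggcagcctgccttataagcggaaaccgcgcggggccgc
Hmgcs1 had 1 sterol element, 3 CCAAT and 2 GGGCGG matches in the bases shown, Mvk had 5 CCAAT and 2 GGGCGG, and Insig1 had 1 CCAAT and 3 GGGCGG. These genes had log2 fold changes of −0.14 for Hmgcs1, 0.09 for Mvk and −0.44 for Insig1, and none of them passed the test.

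Genes next to the pathway were counted from 5 further lists, and no gene on any of them passed. Over all genes tested, 49.7% had a log2 fold change below 0. At an unadjusted p under 0.05 by edgeR, 5.07% of all genes tested were higher and 4.16% lower. In the list of sterol sensing and turnover in the endoplasmic reticulum, 9 of 18 genes had a log2 fold change below 0 (median 0.00). Its smallest p was that of Nfya, an NF-Y subunit, at 57.5 ± 7.72 CPM in Abca3 cKO and 73.3 ± 19.2 CPM in control (SD, n = 3 each; unadjusted p = 0.0802 by edgeR). Among 7 electron donors of the sterol enzymes, 5 had a log2 fold change below 0, and Cyb5b, an outer mitochondrial cytochrome b5, was at 523 ± 40.1 CPM in Abca3 cKO and 438 ± 5.13 CPM in control (unadjusted p = 0.0358, adjusted p = 0.484). Of 13 genes of the other branches from farnesyl diphosphate, 11 had a log2 fold change below 0 (median −0.10), led by the ubiquinone enzyme Coq2 at −0.44 (adjusted p = 0.621). Insig2, the second retention gene, was at 34.7 to 58.9 CPM in Abca3 cKO and 47.0 to 56.9 CPM in control libraries (adjusted p = 0.836).

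SREBP1, encoded by Srebf1, turns on fatty acid synthesis through the same escort. Srebf1 was at 75.2 to 84.0 CPM in Abca3 cKO and 78.2 to 90.2 CPM in control libraries (adjusted p = 0.900). Of 13 of its fatty acid targets, 9 had a log2 fold change below 0 (median −0.11), against 49.7% of all genes tested. At an unadjusted p under 0.05, 2 were higher, against 5.07% of all genes tested, and 2 lower, against 4.16%. Gpam, a glycerophosphate acyltransferase, had a log2 fold change of 0.38 and Acly, which makes cytosolic acetyl-CoA, had 0.27. The desaturases Scd2 and Fads1 had −0.30 and −0.28. Adjusted p-values of these genes were 0.313 to 0.536 by edgeR. Of the 11 tested genes among 12 of the liver X receptor and oxysterol list (Ch25h was not tested), 5 had a log2 fold change below 0, and the cholesterol exporter Abca1 was at 141 ± 18.9 CPM in Abca3 cKO and 178 ± 17.3 CPM in control (unadjusted p = 0.0152, adjusted p = 0.360). Soat1 and Scp2 lie outside these lists and handle the product of the pathway. They were picked after their values were seen and do not stand for other sterol-handling genes. Soat1, which esterifies cholesterol, was higher in Abca3 cKO (764 to 980 CPM in Abca3 cKO and 458 to 520 CPM in control, log2 fold change 0.78, adjusted p = 0.0119 by edgeR). The sterol carrier Scp2 was higher too (307 to 320 CPM in Abca3 cKO and 184 to 218 CPM in control, 0.66, adjusted p = 0.0163 by edgeR).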

How the data were processed

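Per the labels' protocols, total RNA (RNeasy Plus) went through NuGEN Ovation RNA-Seq v2 amplification, which keeps no strand information, and Nextera XT library preparation. The authors deposited whole-number counts per gene, not normalized, and RPKM. Tools listed in the submitters' processing notes are Cufflinks 2.0.2, TopHat2 2.0.8, Bowtie2 2.1.0 and DESeq, on mm10 (GRCm38). Their roles, the counting program with its strand setting, and the gene models were not given in the sources used here. The counts are of amplified material, not of single molecules.

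The counts went into edgeR 4.0.16 (R 4.3.3): filterByExpr (14477 of 23478 genes), TMM, robust glmQLFit and two-sided glmQLFTest on group alone, with Benjamini-Hochberg adjustment over all genes tested. Per-library log2 CPM used a prior count of 2. The steps were tested on simulated data. The members and all lists were chosen with earlier results of these data known, so their counts and medians are descriptions and no list was tested as a set. All 26 members are named; from the other pathway lists those with an unadjusted p under 0.05 are named or, where there was none, the gene with the smallest p; Insig2, Srebf1, Soat1 and Scp2 were named after their values were seen. Alternatives were other scalings, no count filter, DESeq2 1.42.0, limma 3.58.1 on log2(RPKM + 1) with a pseudocount of 1 or 0.1, a replicate block and leaving out each library. Coordinates and exon overlaps came from GENCODE M21 and promoters from RefSeq GRCm38.p6. A sheet of 29 symbols with no values was not used. Libraries of a group differed by more than counting noise (chi-square per degree of freedom 32.1 to 54.8), which does not show separate mice.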

Additional observations from a re-analysis of the deposited data

How the results depend on the processing

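No member passed under any of the 14 alternatives, and the smallest adjusted p of a member was 0.0949 (Fdps, DESeq2). Between 18 and 22 members had a log2 fold change below 0 and their median was −0.13 to −0.29 when 1 library was left out, and 21 and −0.17 to −0.22 otherwise. Fdps had an unadjusted p under 0.05 in all 14, and over the 6 that leave out a library it did so in 6, Insig1 in 4, and Pmvk and Mbtps2 in 3 each. At that level 8 members were lower without control replicate 1 (Hmgcs1, Pmvk, Idi1, Fdps, Lss, Cyp51, Msmo1 and Insig1), against 3.23% of all genes tested. Without Abca3 cKO replicate 2, 6 were lower, against 3.87%, and with all libraries 3, against 4.16%. In each fit that left out another library 3 were lower, against 3.83% to 4.2% of all genes tested.

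Over all genes, 55 passed as reported, 132 without a count filter, 241 with DESeq2, 27 with limma on log2(RPKM + 1), 28 with a pseudocount of 0.1, 2 without an RPKM filter and 21 to 50 when 1 library was left out (26, 27 and 39 without Abca3 cKO replicates 1, 2 and 3, and 21, 46 and 50 without control replicates 1, 2 and 3). The cause was not tested. Of 364 member values under these alternatives 10 changed sign, in 8 genes and each time when 1 library was left out: over those alternatives the log2 fold change ran from −0.49 to 0.085 for Mvd, −0.073 to 0.19 for Hsd17b7, −0.20 to 0.016 for Ebp, −0.12 to 0.45 for Mvk, −0.40 to 0.14 for Hmgcs1, −0.28 to 0.0077 for Fdft1, −0.32 to 0.15 for Nsdhl and −0.43 to 0.38 for Dhcr7.

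The labels do not say whether the replicate numbers pair the libraries. The deviations of same-numbered libraries from their group means correlated at 0.0762, −0.0304 and −0.0272 across genes, and those of differently numbered ones at −0.0816 to 0.105. Such correlations cannot show whether libraries shared a litter or a day. With the replicate block 33 genes passed, no member did, and 21 members had a log2 fold change below 0 with a median of −0.19. In that fit 5 members had an unadjusted p under 0.05, all 5 lower in Abca3 cKO, where 3.96% of all genes tested (574 of 14477) were lower at that level. With 3 libraries a group, the intervals of most members still include a difference of 0, and those of 2 members reach past 2-fold.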
